A study of Mus musculus with 6 samples.

Results

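The genes described here encode the subunits of oxidative phosphorylation, together with the assembly factors and tissue isoforms that share their names. They were chosen by symbol and not by any measured value, as the protein-coding entries whose symbols begin with Nduf, Uqcr, Cox4 to Cox8, Atp5 or mt-, with Sdha to Sdhd and Cyc1. Of 55487 genes listed in the count table, 110 entries matched, and 105 of these had at least 60 counts summed over all mice and were kept. The kept genes were 93 genes of the nuclear genome and 12 of the mitochondrial genome. The 5 dropped entries were mt-Atp8 with 7 counts, the muscle isoform Cox6a2 with 3, and Cox7b2, Cox8c and a second entry named Atp5o with 0 counts each. Just inside the limit were mt-Nd4l with 64 counts and Cox8b with 76, followed by Cox6b2 with 212.

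RNA had been sequenced from mammary epithelial cells (MECs) of 10-week-old female BALB/c mice, 3 wild-type and 3 IL-21isoTg, with 1 library per mouse. IL-21isoTg mice express an isoform of the cytokine interleukin-21 in T cells, so the transgene was not directed to the epithelial cells sequenced. MECs were what remained of the digested gland after magnetic beads had removed leukocytes (CD45), endothelial cells (CD31) and fibroblasts (CD140a). The values are reads counted per gene, with totals of 15902886 to 25719244 per mouse, and the comparison asks whether the transgene changed gene expression in these cells.

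Oxidative phosphorylation is the process by which mitochondria turn the energy of food electrons into ATP. Complexes I to IV of the respiratory chain pass electrons from NADH and succinate to oxygen, and complexes I, III and IV pump protons across the inner membrane. Complex V, the ATP synthase, lets the protons flow back and makes ATP. The complexes, except complex II, are built from proteins of both genomes. Mitochondrial DNA encodes catalytic subunits of complexes I, III and IV and membrane subunits of complex V, while the nuclear genome encodes the remaining core subunits, the supernumerary subunits that surround the core, and the assembly factors. In the mammary gland the demand for ATP is known to grow with milk production.

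Of the nuclear members, 45 belonged to complex I, 4 to complex II, 9 to complex III, 18 to complex IV and 17 to complex V. By role, 21 were core subunits, 57 supernumerary subunits, 8 assembly factors of complex I (the Ndufaf genes) and 5 tissue isoforms of complex IV. The other 2 were Cox7a2l, which joins complexes into supercomplexes, and Cox5b-ps, a copy of Cox5b that the annotation lists as protein coding. The mitochondrial members were 7 genes of complex I, 1 of complex III, 3 of complex IV and 1 of complex V.

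Several mitochondrial genes have a copy in the nuclear genome, which bears on how their counts can be read. A cluster of 7 unprocessed pseudogenes lies on the minus strand of chromosome 1 of GRCm38, between 24611535 and 24616197. Its members align without gaps to mt-Co1, mt-Co2, mt-Atp6, mt-Co3, mt-Nd3, mt-Nd4l and mt-Nd4. The 681 bases of Gm28661 matched mt-Co2 at every position, as did the 783 bases of Gm28437 with mt-Co3, the 678 bases of Gm10925 with mt-Atp6, the 294 bases of Gm10222 with mt-Nd4l and the 876 bases of Gm28439 with mt-Nd4. Gm28438 differed from mt-Nd3 at 1 of 345 positions, T3C, counted from the first base of mt-Nd3. Gm29216 differed from the last 492 bases of mt-Co1 at 6 positions. Bases 301 to 380 of mt-Co2 (chrM:7313-7392, plus strand) and of Gm28661 (chr1:24615186-24615265, minus strand), both taken from the GENCODE M21 transcripts of GRCm38, are shown because no read inside them can be assigned to 1 gene rather than the other.
mt-Co2: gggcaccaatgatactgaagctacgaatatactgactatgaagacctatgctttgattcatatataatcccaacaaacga
Gm28661: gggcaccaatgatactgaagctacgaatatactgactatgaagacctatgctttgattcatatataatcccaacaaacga

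Each annotated transcript was broken into every run of 100 bases and each run was looked for in the transcripts of all other genes. At least 90% of the runs were found in another gene for 5 mitochondrial genes, called here genes with shared sequence: mt-Co3 (99.9%), mt-Co2 (99.5%), mt-Atp6 (99.5%), mt-Nd4l (98.5%) and mt-Nd3 (97.6%). The other 7, called genes with their own sequence, had a share of 60.8% for mt-Nd4, 30.8% for mt-Co1, 3.19% for mt-Nd2 and 0% for mt-Nd1, mt-Nd5, mt-Nd6 and mt-Cytb. Among the nuclear members, 71 of 93 had a share under 1%. The highest nuclear share was 34.7%, for Atp5g2, which encodes the c subunit of the ATP synthase ring. How the authors treated reads that match more than 1 place is not given in the sources used here.

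The promoters of the nuclear members are shown next, because the members are known as targets of common transcription factors. RefSeq promoter windows of GRCm38.p6, from 250 bases before to 50 after the start of a gene, were matched by symbol for 75 of the 93 nuclear members, with 80 windows in all. The 3 motifs searched on both strands were GCGCA, any base and GCGC for NRF1, CCGGAAG for the ETS family to which GABPA belongs, and AANATGGC for YY1. The NRF1 letters were in 20 of the 80 windows (25.0%) against 4.60% of all 32851 windows, the GABPA letters in 19 (23.8%) against 8.86%, and the YY1 letters in 19 (23.8%) against 6.05%. At least 1 of the 3 motifs was in 62.5% of the members' windows and in 17.4% of all windows. Median GC content was 58.5% in the members' windows and 52.7% in all, and among windows of at least 50% GC the shares with a motif were 63.9% and 23.8%. In no member window did matches of different motifs overlap. The 250 bases before the start are printed for Sdha, with 3 NRF1 matches, for Cox6a1, with 2 NRF1 matches and 1 GABPA match, and for the tissue isoform Cox8b, with none. Capitals mark the matches. The stretches are chr13:74350241-74350490 for Sdha, chr5:115348959-115349208 for Cox6a1 and chr7:140900447-140900696 for Cox8b, all on the minus strand.
Sdha: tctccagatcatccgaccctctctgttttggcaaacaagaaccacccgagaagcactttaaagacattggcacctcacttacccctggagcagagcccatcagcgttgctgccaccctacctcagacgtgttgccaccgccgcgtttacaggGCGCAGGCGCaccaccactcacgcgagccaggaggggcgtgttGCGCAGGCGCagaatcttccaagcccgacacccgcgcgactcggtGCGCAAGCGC
Cox6a1: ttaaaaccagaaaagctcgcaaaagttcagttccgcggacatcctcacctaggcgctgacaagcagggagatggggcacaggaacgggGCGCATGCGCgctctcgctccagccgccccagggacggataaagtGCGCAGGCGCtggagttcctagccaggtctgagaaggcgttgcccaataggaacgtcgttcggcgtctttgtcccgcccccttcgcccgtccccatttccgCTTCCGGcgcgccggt
Cox8b: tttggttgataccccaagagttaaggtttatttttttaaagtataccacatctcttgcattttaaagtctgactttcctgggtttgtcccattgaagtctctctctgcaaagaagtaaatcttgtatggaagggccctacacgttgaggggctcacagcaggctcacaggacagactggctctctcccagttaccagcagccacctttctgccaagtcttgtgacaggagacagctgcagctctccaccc

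Before the values, the preparation itself was checked. Il21 was counted 0, 0 and 37 times in wild-type libraries and 795, 216 and 131 times in IL-21isoTg libraries, the direction that the labels give. All 8 luminal and all 8 basal epithelial markers were detected, with summed levels of 5448 to 8985 and of 1727 to 3295 CPM (counts relative to the TMM-scaled size of each library). Markers of the depleted cells remained at summed levels of 15.4 to 32.8 CPM for leukocytes, 55.7 to 248 CPM for endothelium and 1929 to 4935 CPM for fibroblasts. A list of 15 salivary gland genes, which are not markers of the mammary gland, took 22.9%, 6.57% and 15.7% of all counts in wild-type mice 1 to 3 and 22.5%, 4.90% and 40.9% in IL-21isoTg mice 1 to 3. Summed levels of white adipocyte markers were 25.4 to 192 CPM and of erythroid markers 4.36 to 93.9 CPM. IL-21isoTg mouse 3 stood apart with the largest salivary share. Values without it are given below for Ndufa1, Cox7a1, Cox8b, mt-Co3, Ppargc1a and the nuclear median. Most other values are given with it only, although it was the highest mouse for 51 of the 93 nuclear members. In bulk samples fewer cells of a type and less RNA per cell cannot be told apart.

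No member differed between the genotypes past the threshold. With edgeR's quasi-likelihood test, 0 of the 104 members tested had an adjusted p under 0.05, as had 0.00% of all 17165 genes tested, and the smallest adjusted p among the members was 0.809. At an unadjusted p under 0.05, 1 member passed, mt-Co2, against 5.82% of all genes. DESeq2, which called 0.472% of all genes, edgeR's likelihood ratio test, which called 0.379%, and limma-voom each called 0 members. The genotypes did not overlap for 7 members. IL-21isoTg was the higher genotype in 6 of them (5.54% of all genes) and the lower in 1 (6.54% of all genes). The values below are therefore descriptions of levels and of their spread.

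The nuclear members mostly varied by under 2-fold across the mice. Their summed level was 7165, 5825 and 6045 CPM in wild-type mice 1 to 3 and 6226, 6258 and 7425 CPM in IL-21isoTg mice 1 to 3, which overlapped. For 86 of 93 nuclear members the highest mouse was under 2-fold above the lowest, and the median of this ratio was 1.47. The median SD of log2 CPM among mice of 1 genotype was 0.214 for nuclear members, against 0.248 for all 9614 tested genes with a mean of at least 10 CPM. These sets were not matched for level, and 79 of the 93 nuclear members had a mean of at least 10 CPM. The median log2 fold change of IL-21isoTg over wild-type was 0.08, with 67 values above 0 and 26 below (72.0% above 0), beside a median of -0.02 and 47.9% above 0 for all genes. Single values were mostly smaller than their errors, since the SE exceeded the size of the log2 fold change for 69 of 93 members. IL-21isoTg mouse 3 had the highest level of all mice for 51 nuclear members and wild-type mouse 1 for 26, while wild-type mouse 2 was the lowest for 31. These levels depend on the scaling of the libraries. As a share of all counts before scaling, the nuclear members were lowest in IL-21isoTg mouse 3, 0.501% against 0.582% to 0.730% in the other mice. Its TMM factor, 0.675, was also the lowest. Without IL-21isoTg mouse 3 the median log2 fold change was -0.02.

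**Figure D1:**
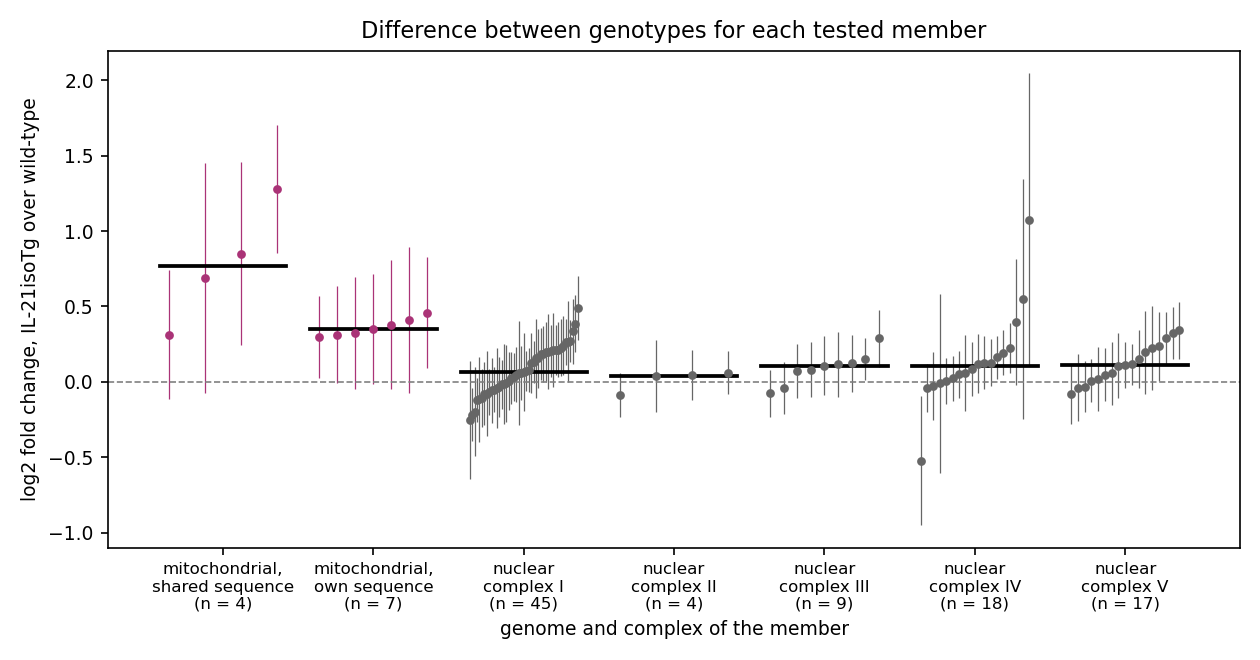
Log2 fold change of IL-21isoTg over wild-type from edgeR for the 104 members tested, grouped on the horizontal axis by genome, shared sequence and complex. Points are genes with bars of 1 SE, black lines are medians; the nuclear medians lie between 0.04 and 0.11, and those of the mitochondrial genes with their own and with shared sequence at 0.35 and 0.77.

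Complex I, the entry point for electrons from NADH, had a median log2 fold change of 0.07 over its 45 nuclear members, 29 of them above 0. Ndufs1, the largest subunit and a carrier of iron-sulfur clusters, had 64.7, 53.6 and 59.4 CPM in wild-type mice and 54.8, 53.0 and 68.0 CPM in IL-21isoTg mice. Ndufv1, which binds NADH and the flavin cofactor, had 94.2, 77.6 and 82.0 CPM in wild-type and 84.7, 76.9 and 98.2 CPM in IL-21isoTg mice. The genotypes overlapped for both, with log2 fold changes of -0.02 (SE 0.16) and 0.03 (SE 0.16).

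Among other core subunits of complex I, log2 fold changes were 0.16 (SE 0.20) for Ndufs3, 0.21 (SE 0.17) for Ndufs7 and -0.11 (SE 0.19) for Ndufv2. Ndufs8, an iron-sulfur subunit on the way to ubiquinone, was the only member for which every IL-21isoTg mouse lay below every wild-type mouse. It had 42.8, 36.5 and 36.7 CPM in wild-type mice and 35.2, 36.2 and 35.3 CPM in IL-21isoTg mice, so that the groups were separated by a margin smaller than the spread of the wild-type mice (log2 fold change -0.12, SE 0.14, adjusted p = 0.892).

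The supernumerary subunits of complex I held the largest positive value among the nuclear members other than tissue isoforms. Ndufa1, a small subunit of the membrane arm, had 27.5, 29.2 and 25.5 CPM in wild-type mice and 37.0, 29.1 and 49.5 CPM in IL-21isoTg mice. IL-21isoTg mouse 2 fell among the wild-type mice, and edgeR gave a log2 fold change of 0.49 (SE 0.21, adjusted p = 0.809), which was 0.28 without IL-21isoTg mouse 3. Next came Ndufa6 with 0.39 (SE 0.19) and Ndufb4 with 0.33 (SE 0.21), both with overlapping genotypes. Ndufa2 had 34.2, 33.9 and 32.4 CPM in wild-type mice and 42.5, 37.6 and 41.4 CPM in IL-21isoTg mice. These did not overlap, as was also the case for Ndufa13 (0.26, SE 0.15) and Ndufa8 (0.13, SE 0.14), and the log2 fold change of Ndufa2 was 0.27 (SE 0.14, adjusted p = 0.809). The lowest value among subunits was that of Ndufab1, the mitochondrial acyl carrier protein, at -0.22 (SE 0.18).

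The 8 assembly factors of complex I, which help to build the complex without staying in it, stood at a median of -0.05 on the log2 scale, 2 of 8 being above 0. The 57 supernumerary subunits of all complexes had a median of 0.13 (46 above 0) and the 21 core subunits of 0.04 (14 above 0). IL-21isoTg mouse 3 was the highest mouse for 36 of the 57 supernumerary and 10 of the 21 core subunits. All medians given here by role, complex, length or promoter motif include that mouse. Ndufaf6 had the lowest log2 fold change of the assembly factors, -0.25 (SE 0.39), with 6.49, 2.59 and 3.69 CPM in wild-type and 3.70, 3.91 and 3.08 CPM in IL-21isoTg mice. Wild-type mouse 1 alone lay high, and without it the value was 0.20. Ndufaf5 followed at -0.20 (SE 0.30).

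Complex II, succinate dehydrogenase, feeds electrons from the citric acid cycle into the chain and is encoded in the nucleus alone. Its flavoprotein Sdha had 162, 158 and 165 CPM in wild-type mice and 151, 152 and 197 CPM in IL-21isoTg mice. IL-21isoTg mice lay both below and above the wild-type range, and the log2 fold change was 0.04 (SE 0.17). It was likewise small for the iron-sulfur subunit Sdhb at 0.04 (SE 0.24) and for the membrane anchors Sdhc at -0.09 (SE 0.15) and Sdhd at 0.06 (SE 0.14).

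Complex III passes electrons from ubiquinol to cytochrome c. Cyc1, its cytochrome c1, had 122, 79.8 and 84.9 CPM in wild-type mice and 103, 87.1 and 120 CPM in IL-21isoTg mice, which overlapped (log2 fold change 0.12, SE 0.21). The Rieske iron-sulfur protein Uqcrfs1 was at 0.08 (SE 0.18), and Uqcrc1 and Uqcrc2, the large matrix subunits, were at 0.07 (SE 0.18) and -0.04 (SE 0.17). The largest value was that of Uqcrq, 0.29 (SE 0.19), and the median of the 9 nuclear genes was 0.11.

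Complex IV, cytochrome c oxidase, reduces oxygen to water. Cox4i1, the common form of its regulatory subunit 4, had 294, 302 and 305 CPM in wild-type mice and 344, 332 and 355 CPM in IL-21isoTg mice. Every IL-21isoTg mouse lay above every wild-type mouse, and the log2 fold change of 0.19 (SE 0.15, adjusted p = 0.839) stayed between 0.18 and 0.22 when any 1 mouse was left out. Cox5a and Cox5b, which sit beside it, had log2 fold changes of -0.03 (SE 0.23) and 0.09 (SE 0.18). The median of the 18 nuclear genes was 0.10.

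Complex V held the most abundant nuclear members. Atp5b, the catalytic beta subunit, had 1096, 792 and 841 CPM in wild-type mice and 778, 895 and 984 CPM in IL-21isoTg mice. Atp5a1, the alpha subunit, had 763, 583 and 604 CPM in wild-type and 575, 631 and 771 CPM in IL-21isoTg mice. In both, wild-type mouse 1 and IL-21isoTg mouse 3 were high, and the log2 fold changes were -0.04 (SE 0.22) and 0.02 (SE 0.21). Atp5c1, the central shaft, was at -0.08 (SE 0.20), and the ring subunit Atp5g3 was the fourth most counted nuclear member, with a mean of 168 CPM. The median of the 17 nuclear genes was 0.11. The largest values were those of Atp5g1, 0.34 (SE 0.19), of Atp5md, 0.33 (SE 0.17), and of Atp5j, 0.29 (SE 0.17), a part of the outer stalk. With 1 mouse left out at a time, the lowest values of these genes were 0.19, 0.20 and 0.18. Atp5l was the only gene of the complex without overlap, with 43.3, 43.5 and 43.8 CPM in wild-type and 44.4, 46.7 and 50.5 CPM in IL-21isoTg mice (0.12, SE 0.13).

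Between genes, levels were compared per kb of exon sequence. The median of the nuclear members was 27.0 CPM per kb. Complex III had the highest median, 46.4 CPM per kb, followed by complex IV at 41.1, complex V at 36.1, complex II at 32.4 and complex I at 20.4. Within complexes the range was wider than between them, from 1.13 CPM per kb for Ndufb2 to 78.7 for Ndufa1 in complex I and from 6.91 for Atp5g1 to 212 for Atp5b in complex V. The highest values after Atp5b were those of Atp5a1 (209), Cox4i1 (208), Cox6a1 (187) and Cox8a (168 CPM per kb). Core subunits had a median of 39.8 and supernumerary subunits of 29.1, while the assembly factors reached at most 7.06 and the tissue isoforms at most 4.44 CPM per kb. Exons of all annotated transcripts were joined for the length, so a gene with long alternative exons gets a low value per kb.

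**Figure D2:**
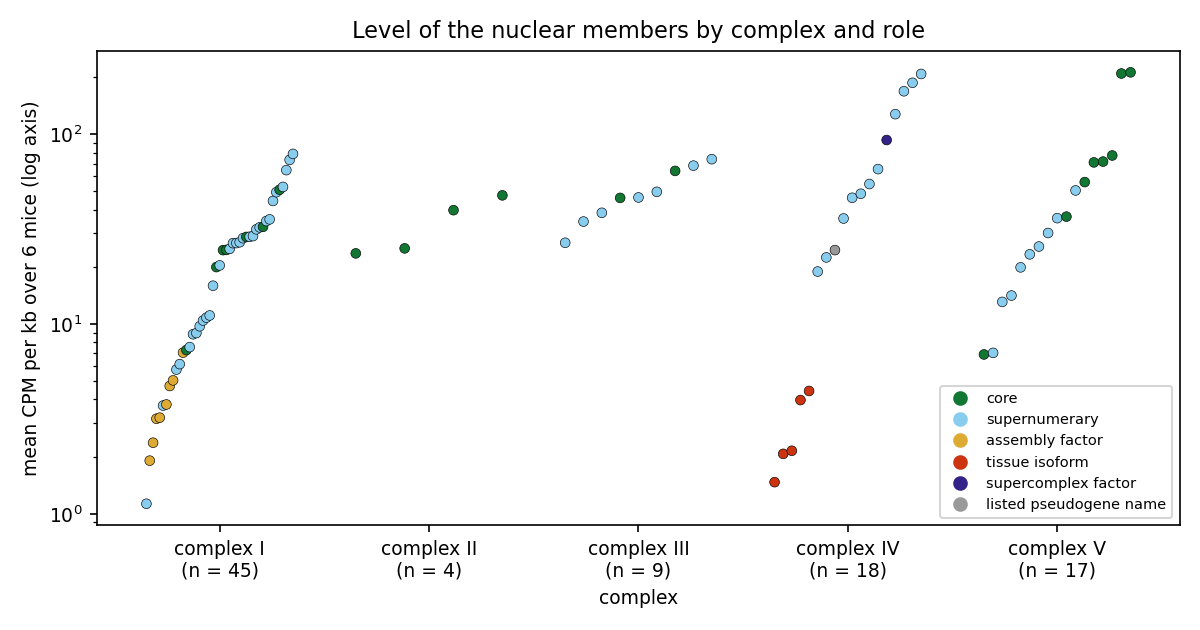
Mean level of the 93 nuclear members over the 6 mice in CPM per kb of exon sequence (log axis), grouped by complex and coloured by role, with genes in order of level within a complex. All assembly factors and tissue isoforms lie at or below 7.06 CPM per kb, together with a few subunits of which Ndufb2 is the lowest of all at 1.13, and Atp5b, Atp5a1 and Cox4i1 at the top, between 208 and 212.

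The tissue isoforms Cox7a1, Cox8b, Cox4i2 and Ndufa4l2 of complex IV had the largest SD of log2 CPM among mice of 1 genotype of all nuclear members, 0.52 to 0.956, while that of Cox6b2 was 0.274. Such isoforms replace a common subunit in particular tissues, such as heart, muscle, lung or testis, and their counts here were low. Cox8b, known from heart, muscle and brown fat, had 10, 8 and 12 counts in wild-type mice and 21, 2 and 23 in IL-21isoTg mice. IL-21isoTg mouse 2 held the lowest value, at or under the floor of 3 counts taken here, and the other IL-21isoTg mice held the highest. Its log2 fold change of 1.08 (SE 0.97, adjusted p = 0.856) was the largest among nuclear members but was 0.05 without IL-21isoTg mouse 3 and -0.14 with limma-voom.

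Cox7a1, the heart and muscle partner of Cox7a2, had 1.17, 1.54 and 2.34 CPM in wild-type mice and 0.915, 0.819 and 5.97 CPM in IL-21isoTg mice. The high value of IL-21isoTg mouse 3 set the direction, since the log2 fold change was 0.55 (SE 0.80) with this mouse and -0.95 without it. The share of Cox7a1 in the count of Cox7a2 was 8.10% in this mouse and 1.39% to 4.05% in the others. The summed level of 4 brown adipocyte markers was also highest in this mouse, 44.0 CPM against 15.2 to 23.1 CPM, with Ucp1 at 0 counts there. Most of that sum was Ppargc1a, which is also listed below as a regulator of mitochondrial biogenesis. The summed level of white adipocyte markers was 30.1 CPM in this mouse, within the 25.4 to 192 CPM of the other mice. The summed level of 8 skeletal muscle markers was 4.29 CPM there, near the lower end of the 4.13 to 16.0 CPM in the other mice. The part of any of these lists in the levels of Cox7a1 and Cox8b was not tested.

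Cox6b2, the testis partner of Cox6b1, had the lowest log2 fold change of all members, -0.52 (SE 0.43, adjusted p = 0.843), with 45, 32 and 49 counts in wild-type and 25, 49 and 12 counts in IL-21isoTg mice. Cox4i2, a lung form of subunit 4, made up 0.21% to 0.781% of the count of Cox4i1, with overlapping genotypes and a log2 fold change of -0.01 (SE 0.60). Ndufa4l2, a relative of Ndufa4 known to respond to low oxygen, had 2.26, 6.68 and 3.69 CPM in wild-type mice and 6.07, 6.07 and 4.38 CPM in IL-21isoTg mice. Wild-type mouse 1 was lowest and wild-type mouse 2 highest (0.39, SE 0.42). The common partners Cox6a1, Cox6b1, Cox7a2, Cox8a and Ndufa4 varied 1.25 to 1.57-fold across the mice.

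**Figure D3:**
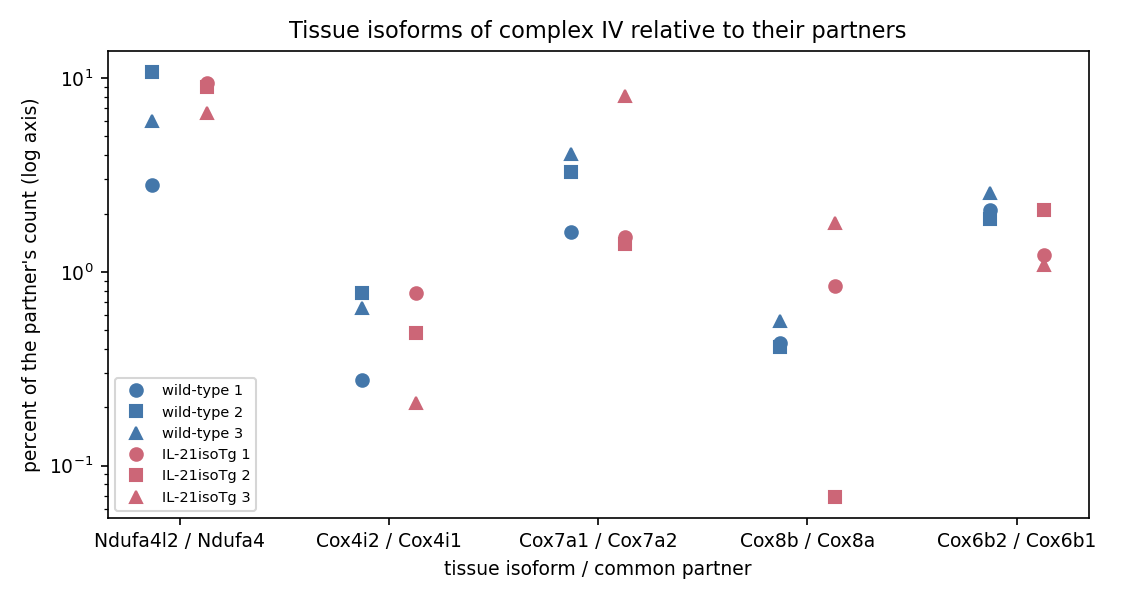
Count of each tissue isoform as a percent of the count of its common partner (log axis) in every mouse, with blue points for wild-type and red points for IL-21isoTg and a marker shape for each replicate number. The genotypes overlap in every pair, and Cox7a1 and Cox8b are highest in IL-21isoTg mouse 3, at 8.10% and 1.79%.

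The mitochondrial genes with their own sequence were far more abundant than any nuclear member, and more variable. Their median level was 2597 CPM per kb, and their range was from 1185 for mt-Nd6 to 13296 for mt-Co1. mt-Co1, the catalytic subunit of complex IV, had 10155, 27773 and 14957 CPM in wild-type mice and 28057, 20668 and 21644 CPM in IL-21isoTg mice. mt-Cytb, the cytochrome b of complex III, had 4049, 10681 and 7390 CPM in wild-type and 11728, 7864 and 9192 CPM in IL-21isoTg mice. Wild-type mouse 1 was the lowest for all 7 of these genes, and either IL-21isoTg mouse 1 (5 genes) or wild-type mouse 2 (2 genes) was the highest, so the genotypes overlapped throughout.

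Their log2 fold changes lay close together, from 0.30 for mt-Nd6 (SE 0.27) to 0.46 for mt-Nd4 (SE 0.37), with a median of 0.35 and 7 of 7 above 0. That of mt-Co1 was 0.41 (SE 0.48, adjusted p = 0.889). These genes are transcribed from a single circular molecule as long shared precursors, so they are not independent measurements of a difference between genotypes. The median SD of log2 CPM among mice of 1 genotype was 0.489 over all 12 mitochondrial genes, against 0.214 for the nuclear members.

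The proportions among the genes with their own sequence were more stable than their levels. The count of mt-Co1 was 7.80 to 9.88 times that of mt-Nd5 in every mouse, and that of mt-Cytb 3.11 to 4.22 times. mt-Nd2 was at 1.02 to 1.29 and mt-Nd4 at 1.23 to 1.57 times mt-Nd5, a subunit of the proton-pumping arm of complex I. mt-Nd6 is the only one of these genes on the light strand, and its ratio to mt-Nd5, with whose end it overlaps, was 0.34, 0.229 and 0.262 in wild-type mice and 0.264, 0.226 and 0.273 in IL-21isoTg mice. The library kit keeps the strand, but whether the counting used it is not given in the sources used here.

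**Figure D4:**
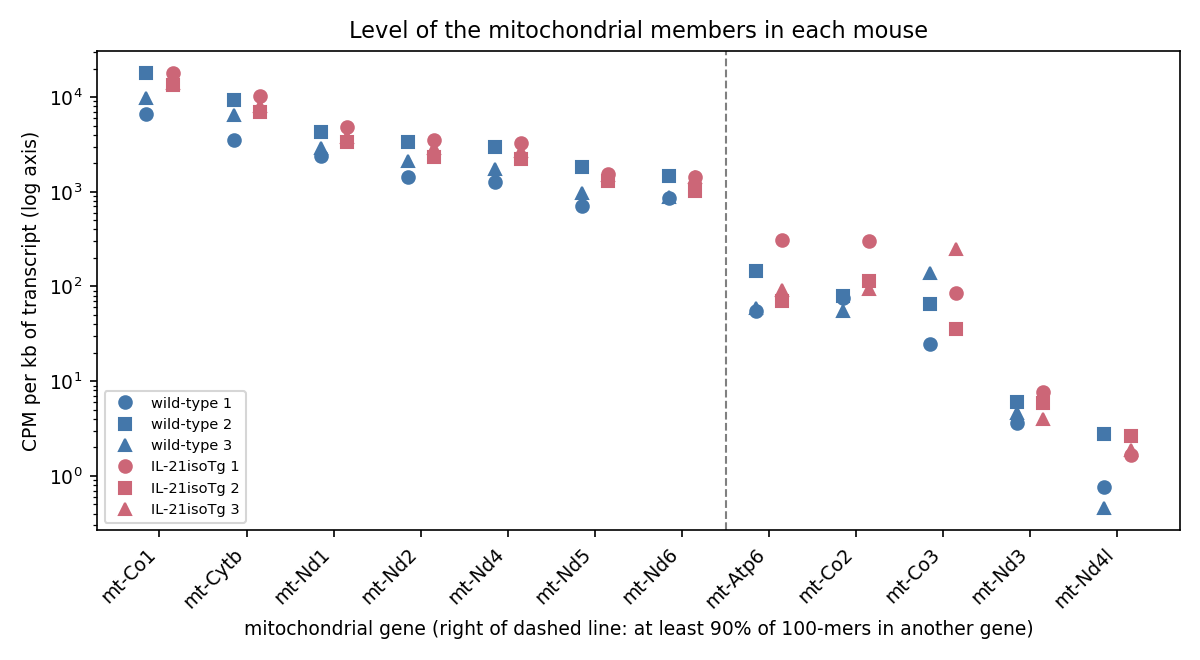
Level of the 12 mitochondrial members in every mouse, in CPM per kb (log axis), with blue points for wild-type and red points for IL-21isoTg and a marker shape for each replicate number. The 7 genes left of the dashed line have means of 1185 to 13296 CPM per kb, and the 5 genes to its right, with shared sequence, have means of 1.69 to 122.

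The mitochondrial genes with shared sequence were listed at levels far below their neighbours on the same molecule, with means of 122 CPM per kb for mt-Atp6, 120 for mt-Co2, 99.6 for mt-Co3, 5.34 for mt-Nd3 and 1.69 for mt-Nd4l. The counts of mt-Co2 were 0.198% to 0.733% of those of mt-Co1, although both encode catalytic subunits of complex IV. The chromosome 1 copies had counts of the same order. Gm28661 had 428, 883 and 607 counts in wild-type and 1341, 885 and 486 in IL-21isoTg mice, beside 1135, 1142 and 840 and 4948, 2122 and 685 counts for mt-Co2. For these genes the level of the transcripts cannot be read from the counts. A low count was not limited to them, since mt-Atp8, a short gene of complex V that overlaps mt-Atp6, had 0 to 3 counts per mouse with 0% of its runs found in the annotated transcripts of another gene.

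mt-Co2 was the member with the smallest p. It had 51.2, 54.9 and 37.8 CPM in wild-type mice and 206, 79.0 and 63.9 CPM in IL-21isoTg mice. The genotypes did not overlap, and IL-21isoTg mouse 1 was far above the rest. The log2 fold change was 1.28 (SE 0.42, unadjusted p = 0.017, adjusted p = 0.809) and 0.58 without that mouse. The same mouse was highest for mt-Atp6, a proton channel subunit of complex V, with 210 CPM against 37.2 to 100 CPM in the other 5 mice. The log2 fold change of mt-Atp6 was 0.85 (SE 0.61), and -0.11 without IL-21isoTg mouse 1.

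mt-Co3, which lies next to mt-Atp6 on the same molecule, did not follow it. It had 19.3, 51.1 and 109 CPM in wild-type mice and 66.4, 27.7 and 195 CPM in IL-21isoTg mice, with wild-type mouse 3 and IL-21isoTg mouse 3 high. As a percent of mt-Co1, mt-Co3 was at 0.727% and 0.903% in these mice and at 0.134% to 0.237% in the other 4, while mt-Atp6 was at 0.749% in IL-21isoTg mouse 1 and at 0.231% to 0.366% elsewhere. The log2 fold change of mt-Co3 was 0.69 (SE 0.76), and -0.33 without IL-21isoTg mouse 3. For mt-Nd3 it was 0.31 (SE 0.43), and mt-Nd4l, with 3 to 21 counts per mouse, was too low to be tested.

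Together, the mitochondrial genes had 3.01, 9.33 and 5.32 times as many counts as the nuclear members in wild-type mice 1 to 3 and 9.09, 6.44 and 6.06 times as many in IL-21isoTg mice 1 to 3. This ratio within a library does not depend on its normalization. The wild-type mice spanned the whole range and the IL-21isoTg mice lay inside it. The mean of the log2 ratio was 0.42 higher in IL-21isoTg mice, less than the SD of 0.619 among mice of 1 genotype, and it was 0.01 higher without wild-type mouse 1 and 0.82 higher without wild-type mouse 2. The genes with shared sequence carried little of the sum, 109 to 485 CPM of 21560 to 56585 CPM. The share of mitochondrial genes in all counts was 2.14% to 6.65% and that of the nuclear members 0.501% to 0.73%.

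**Figure D5:**
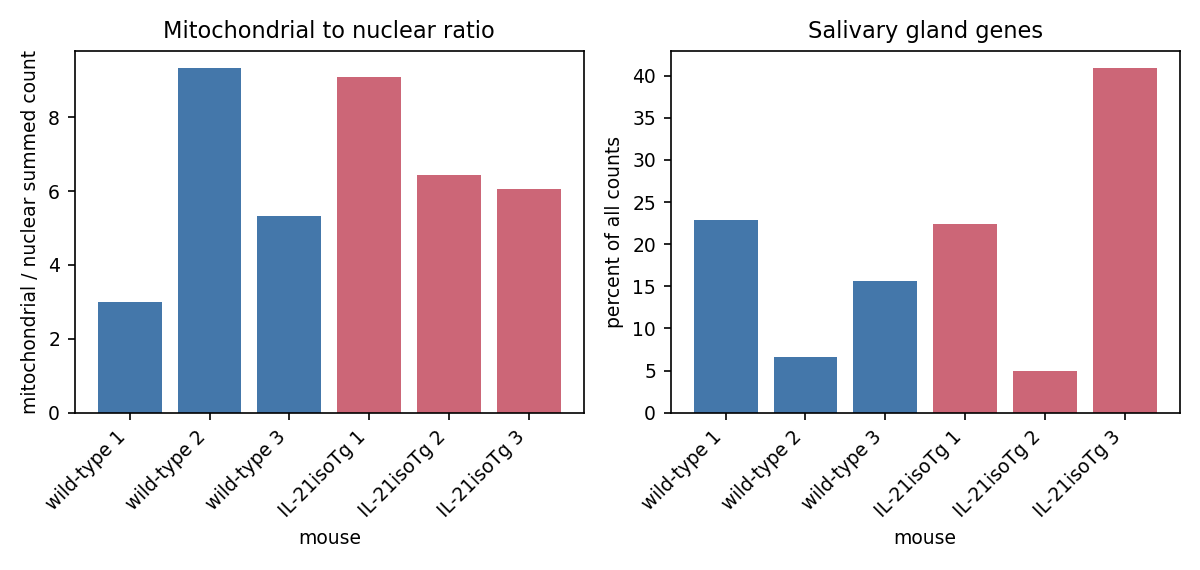
Left, summed count of the mitochondrial members divided by that of the nuclear members in each mouse; right, percent of all counts taken by 15 salivary gland genes. The ratio is lowest in wild-type mouse 1 (3.01) and highest in wild-type mouse 2 (9.33), and the salivary share is 22.9% and 6.57% in these mice and 22.5% in IL-21isoTg mouse 1, whose ratio is 9.09.

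Over all 11 mitochondrial genes tested, the median log2 fold change was 0.38 and 11 of 11 values were above 0. Of these, 4 were genes with shared sequence, whose levels cannot be read from the counts. The mitochondrial median exceeded the nuclear median by 0.30, a difference in which the scaling of the libraries largely cancels. It was -0.02 without wild-type mouse 1 and 0.74 without wild-type mouse 2, so the size and the sign rested on single wild-type mice. Within the wild-type mice the ratio was lower the higher the salivary share (22.9% with 3.01, 15.7% with 5.32 and 6.57% with 9.33). The IL-21isoTg mice did not have that order (22.5% with 9.09, 4.90% with 6.44 and 40.9% with 6.06). The part of the salivary share in the ratio was not tested.

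Nuclear supernumerary and core subunits were also compared within libraries. The count of the former was 0.878, 1.00 and 0.976 of the latter in wild-type mice 1 to 3 and 1.07, 0.984 and 0.998 in IL-21isoTg mice 1 to 3. Only wild-type mouse 1 and IL-21isoTg mouse 1 lay outside a narrow range. Supernumerary subunits are often encoded by short transcripts, and the median log2 fold change was 0.13 for the 31 shortest nuclear members (360 to 1214 bases of exon), 0.07 for the next 31 and 0.05 for the 31 longest. By promoter letters, the medians were 0.07 for the 19 genes with the NRF1 motif and 0.11 for the 56 without it, the same for YY1, and 0.12 for the 19 genes with the GABPA motif and 0.08 for the 56 without it.

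Other genes of the pathway, which do not belong to the members, gave the same picture of no call. Of 26 genes of electron carriers and transporters, 0 passed, with a median log2 fold change of -0.05 and 1 unadjusted p under 0.05. Cycs, the cytochrome c that links complexes III and IV, had a log2 fold change of 0.01 (SE 0.19). The 1 gene with a small p was Coq8a, which acts in ubiquinone synthesis, at 14.1, 24.9 and 23.8 CPM in wild-type and 42.9, 27.0 and 33.7 CPM in IL-21isoTg mice (0.72, SE 0.27, adjusted p = 0.809). Of 36 further assembly factors tested, 0 passed and the median was -0.04. The genotypes did not overlap for 4 of them. IL-21isoTg was the lower genotype in 3 (6.54% of all genes) and the higher in 1 (5.54% of all genes), the complex IV factor Surf1. The 3 were Lyrm7, Atpaf1 and Acad9, which acts in the assembly of complex I (-0.57, SE 0.21, adjusted p = 0.809).

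The genes that maintain and express mitochondrial DNA mostly lay below 0, also without a call. Their summed level was 503, 439 and 479 CPM in wild-type mice 1 to 3 and 450, 440 and 459 CPM in IL-21isoTg mice 1 to 3, which overlapped. Of 24 genes tested, 18 had a log2 fold change below 0, the median was -0.11, and for 5 of them every IL-21isoTg mouse lay below every wild-type mouse (6.54% of all genes do). Tfam, which packages mitochondrial DNA and starts its transcription, had 21.4, 19.2 and 20.4 CPM in wild-type mice and 15.01, 15.9 and 11.4 CPM in IL-21isoTg mice (-0.52, SE 0.19, adjusted p = 0.809). Mtpap, the mitochondrial poly(A) polymerase, had 30.3, 27.8 and 26.8 CPM against 21.8, 19.5 and 23.7 CPM (-0.39, SE 0.16, adjusted p = 0.809). Polrmt, the mitochondrial RNA polymerase, had overlapping genotypes (0.06, SE 0.22). Of 77 mitochondrial ribosomal protein genes tested, 31 were above 0 and 46 below, with a median of -0.06.

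Among 16 regulators of mitochondrial biogenesis, 0 passed and the median log2 fold change was 0.03. Esrra, a nuclear receptor that acts on genes of oxidative phosphorylation, had 36.5, 52.5 and 48.8 CPM in wild-type mice and 76.7, 63.1 and 73.2 CPM in IL-21isoTg mice. These did not overlap (0.63, SE 0.18, adjusted p = 0.809). Its coactivator Ppargc1a had 13.6, 8.94 and 18.7 CPM in wild-type and 7.65, 5.77 and 35.5 CPM in IL-21isoTg mice, with IL-21isoTg mouse 3 high (0.23, SE 0.66). Without that mouse both IL-21isoTg mice lay below the wild-type mice, and the log2 fold change was -1.02 (SE 0.36, adjusted p = 0.905). The log2 fold change was -0.22 (SE 0.25) for Nrf1 and -0.01 (SE 0.14) for Gabpa, whose motifs were counted above. Among markers of the depleted cells, 5 of 5 endothelial and 5 of 6 fibroblast markers lay above 0 (medians 0.80 and 0.71). Leukocyte markers were split, with 3 above and 3 below 0 and a median of -0.01. The endothelial sum was 55.7 to 149 CPM in wild-type and 95.2 to 248 CPM in IL-21isoTg mice. The fibroblast sum was 1929, 3416 and 3090 CPM in wild-type mice and 4935, 4275 and 4315 CPM in IL-21isoTg mice, which did not overlap. Of its 6 markers, 4 had every IL-21isoTg mouse above every wild-type mouse (5.54% of all genes do). With edgeR, 3 had an unadjusted p under 0.05 (5.82% of all genes), while 0 passed after adjustment. Other lists leaned the same way, with 3 of 3 white adipocyte, 13 of 13 salivary gland and 7 of 8 basal markers tested above 0. Their medians were 1.78, 1.02 and 0.50. Luminal markers had 5 above and 3 below 0 (median 0.06), and 4 of 4 skeletal muscle markers tested lay below 0 (median -0.59). The summed levels of these other lists overlapped between the genotypes. The part of the depleted cells or of the other lists in these values was not tested.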

How the data were processed

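Poly(A) RNA of MECs (3 wild-type, 3 IL-21isoTg) was sequenced as directional, paired-end libraries. The authors deposited raw counts of reads per gene, which were used here. Per the labels, the submitters' processing notes name FastQC 0.11.7, Trimmomatic 0.38, HISAT2 2.1.0, SAMtools 1.9, featureCounts 1.6.3, DESeq2 1.24.0 and the build mm10. A table of size-factor-normalized values and the authors' table of fold changes and p-values were not used, and 0 other per-sample columns were left out. The strand and multiple-mapping settings of the counting are not given in the sources used here.

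Counts were filtered with filterByExpr (minimum count 10, total 15), scaled by TMM and compared with edgeR 4.0.16 (quasi-likelihood, robust, genotype only, all 6 mice). P-values are 2-sided and adjusted by Benjamini-Hochberg over 17165 genes. CPM are TMM-scaled. DESeq2 1.42.0 and limma 3.58.1 (R 4.3.3) were alternatives, and the test was checked on simulated counts. Fold changes of lists are medians without a test. SDs of log2 CPM used a pseudocount of 0.5. The floor was set at 3 counts (0.112 to 0.28 CPM) and covers counting error only. Where nothing says that mice came from separate litters or cages, p-values measure the spread between these mice.

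The members, the lists and the tests were chosen with earlier results of these data known. Named were all mitochondrial genes, listed core subunits, tissue isoforms with partners, the 5 largest log2 fold changes each way, the 5 highest and lowest levels, members with an unadjusted p under 0.05, and up to 10 members whose genotypes did not overlap. The 90% limit for shared sequence was set after values were seen. Positions are from GENCODE M21 (GRCm38), and figures were drawn with matplotlib 3.10.9 in Python 3.11.15.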

Additional observations from a re-analysis of the deposited data

How the results depend on the processing

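No alternative called a member, and every median kept its value to within the spread between mice. With other scalings, filters and tests the nuclear median log2 fold change ranged from 0.07 to 0.11 and the mitochondrial median from 0.37 to 0.47. Leaving out 1 mouse at a time moved them from -0.02 (without IL-21isoTg mouse 3) to 0.19 and from 0.17 (without wild-type mouse 1) to 0.77 (without wild-type mouse 2). Without the genes with shared sequence, an alternative added after seeing the data, the mitochondrial median was 0.35. Of 814 values of 51 named members under alternatives, 54 changed sign. With the replicate number as a block, 0 members were called, with medians of 0.08 and 0.46 and a log2 fold change of mt-Co2 of 1.09. Over all genes tested, mice of the same number did not deviate together (correlations of -0.22, 0.07 and -0.06). Such correlations cannot exclude that the numbers pair mice. The erythroid sum had the same order in both genotypes, 70.6, 4.47 and 12.7 CPM in wild-type mice 1 to 3 and 93.9, 4.36 and 24.2 CPM in IL-21isoTg mice 1 to 3. The brown adipocyte sum also kept its order. The luminal, basal, leukocyte, endothelial, fibroblast, white adipocyte, skeletal muscle and salivary sums did not, nor did the mitochondrial to nuclear ratio. Counts limited mt-Nd4l, Cox8b, Cox6b2 and Cox7a1.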
